A study of Mus musculus with 6 samples.

Results

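The comparison of 1 pooled Dnmt3L knockout library with 1 pooled control library of whole fetal mouse testis at 16.5dpc (days post coitum) asked which transposable element families differ in RNA level while male germ cells are prospermatogonia. It comprises 2 of the 6 libraries of a series that also holds testes at 10dpp and 20dpp (days post partum), with 1 knockout and 1 control library at each age. The control at 16.5dpc is labelled Dnmt3L heterozygous and the other library Dnmt3L knockout, both on a C57BL/6 background, and each is a pool of testes from 7 or 8 mice. The label of the later control is heterozygous at 10dpp and wild type at 20dpp, and 3 mice were pooled for each later library. The targeting allele is not described in the sources used here. No wild-type testis was sequenced at 16.5dpc among these libraries. The tissue is the whole organ, so somatic cells contribute RNA beside the germ cells, and fewer germ cells cannot be told apart from less RNA per cell.

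The members are the repeat families with 50 or more counts in both libraries together, which were 678 of the 787 families listed in the series. The other 109 were set aside for low counts, 60 of them from the ancient LTR names, 17 from the ancient MaLR names and 13 from the DNA transposon names. Every listed family of the IAP, ETn/MusD, MMERVK10C, gammaretrovirus-like ERV1 and young LINE-1 groups passed the minimum. Just inside it lay L1M3d with 50.3 counts (log2 ratio -0.43, -1.38 to 0.44) and LTR16D with 51.2 (-0.10, -1.01 to 0.74). Just outside it lay MER5C1 with 48.0 counts (-0.60, -1.61 to 0.30).

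Transposable elements make up a large part of the mouse genome, and most copies are silent relics. LTR retrotransposons (endogenous retroviruses, ERVs) have an internal coding sequence between a pair of long terminal repeats (LTRs), and the LTR holds the promoter. LINE-1 elements have no LTR and encode the enzymes of their own copying, which SINEs borrow. In prospermatogonia the DNA methylation erased earlier in the germ line is laid down again. DNMT3L has no catalytic activity of its own and stimulates the de novo methyltransferases in this step. Loss of Dnmt3L is known for failed methylation of retrotransposons, for meiotic arrest and for male sterility.

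The listed repeat counts summed to 2035033 for control testis and 1548394 for knockout testis. These totals hold repeat reads only, and the depth of the whole libraries is unknown. Levels are given as CPM (listed repeat counts scaled to a sum of 1e+06) after TMM scaling, and a difference as the log2 ratio or fold of knockout over control. Each carries a 95% counting interval, which covers counting error only. No other library of the same genotype and age shows how far 2 like pools differ. The counting interval lay above 0 for 209 families (30.8%) and below 0 for 186 (27.4%), so an interval that leaves out 0 was common in this pair of libraries. Scaled on total counts, the split was 113 above and 274 below, since that scaling shifts every log2 ratio by -0.12. The median log2 ratio of all compared families was -0.02 and the quartiles were -0.28 and 0.25.

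**Figure D1:**
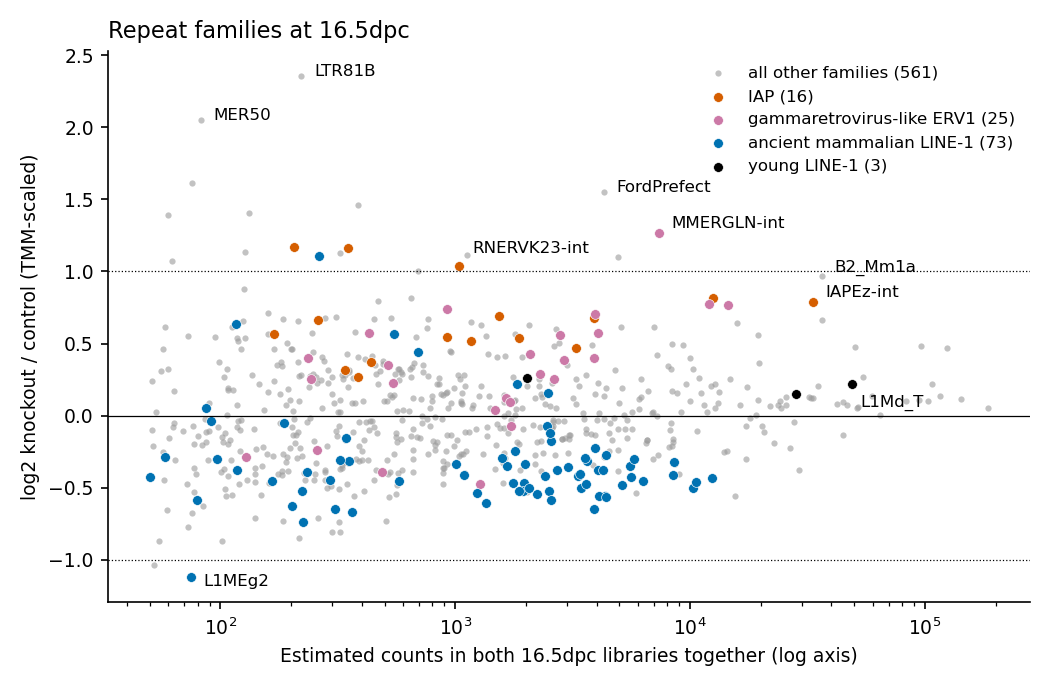
Each point is 1 of the 678 repeat families at 16.5dpc, plotted as the log2 ratio of knockout to control (vertical axis, TMM-scaled) against its counts in both libraries together (horizontal log axis); dotted lines mark 2-fold. All 16 IAP families lie above 0 and most ancient mammalian LINE-1 families below it, while the 2 highest points, LTR81B and MER50, have few counts.

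Differences between the libraries were modest. At least 2-fold higher in the knockout library were 18 families (2.65%), and at least 2-fold lower were 2 (0.295%), together 20 (2.95%). On total counts fewer were 2-fold higher, since MLT1E3 (log2 ratio 0.99), L1M2b (0.99), RNERVK23-int (0.98) and IAPLTR3-int (0.92) fell below it. The SD of the log2 ratio narrowed with depth. It was 0.51 over the 133 families with 50 to 200 counts and 0.33 over the 122 families with 5000 counts and more. In the deepest group the counting interval left out 0 for 89.3% of families, so there the spread between families exceeded counting error. Among those 122 families 1 reached 2-fold, MMERGLN-int.

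Intracisternal A-particles (IAPs) are mouse LTR retrotransposons of the ERVK class with copies still able to move, and their families were all higher in the knockout library. All 16 had ratios above 0, against 48.8% of all families, and 15 had intervals above 0, against 30.8%. The list's median log2 ratio was 0.61, or 0.49 when scaled on total counts, where all 16 ratios also lay above 0 but 12 intervals did. IAPEz-int, the internal sequence of the main IAP group, stood at 6927 CPM in control testis and 11979 CPM in knockout testis. That is a 1.73-fold difference (1.69 to 1.77) from 15095 and 18284 counts. IAPEY3-int was at 2575 and 4542 CPM, 1.76-fold higher (1.7 to 1.83). Both internal sequences have narrow intervals, and these overlap.

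The highest IAP ratios belonged to less covered families. IAPLTR4_I went from 36.7 CPM in the control to 82.8 CPM in the knockout library, 2.25-fold (1.69 to 3.01), and its LTR IAPLTR4 from 62.7 to 140.4 CPM, 2.24-fold (1.79 to 2.78). IAPLTR3-int was at 195 and 400.5 CPM, 2.05-fold (1.81 to 2.32). These were the 3 IAP families past 2-fold, and IAP-d-int was at 1.61-fold (1.46 to 1.78). On total counts the log2 ratio of IAPLTR3-int was 0.92, which is below 2-fold. At the low end IAPEY3_LTR had a log2 ratio of 0.27 (-0.02 to 0.57), the 1 IAP interval that held 0, and IAPEY2_LTR had 0.32 (0.00 to 0.63). The 6 internal entries had a median of 0.80 and the 10 LTR entries one of 0.54. The IAP share of all listed counts was 1.39% in control testis (exact Clopper-Pearson interval 1.38 to 1.41) and 2.16% in knockout testis (2.13 to 2.18).

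Gammaretrovirus-like ERV1 elements, the relatives of murine leukaemia virus, were mixed, and the 5 highest ratios belonged to internal sequences. Among 25 families the interval was above 0 in 15 (60%, against 30.8% of all families) and below it in 2 (8%, against 27.4%). The median was 0.35 on the log2 scale (0.23 on total counts, with 13 above and 3 below). MMERGLN-int stood at 1262 CPM in control testis and 3043 CPM in knockout testis, 2.41-fold (2.3 to 2.53), the highest ratio of any family with 5000 or more counts. MMVL30-int, from the VL30 elements that retroviruses can package, was at 2516 and 4302 CPM, 1.71-fold (1.65 to 1.77). The leukaemia virus entries RLTR4_MM-int and MuLV-int were 1.7-fold (1.65 to 1.76) and 1.63-fold (1.53 to 1.74) higher, and MuRRS-int 1.67-fold (1.46 to 1.9). Lower in the knockout library were RLTR24, at 389 and 280 CPM (1.39-fold higher in the control, 1.24 to 1.57), and RLTR1C, at 147 and 112 CPM (1.31-fold higher in the control, 1.08 to 1.58). The list's share of the counts was 1.67% in control testis and 2.33% in knockout testis.

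Most families of the ETn/MusD and MMERVK10C groups of mouse ERVK elements were higher in the knockout library. ETn/MusD elements, a pair of related ERVs of which ETn lacks coding capacity and MusD supplies it, had intervals above 0 for all 5 families, with a median log2 ratio of 0.50 (0.38 on total counts, again 5 above). ETnERV2-int was at 1926 and 2718 CPM, 1.41-fold (1.35 to 1.47), and ETnERV3-int at 454 and 703 CPM, 1.55-fold (1.42 to 1.69). MMETn-int had the lowest ratio of the list, 1.22-fold (1.14 to 1.3). In the MMERVK10C and RLTR10 list 7 of 9 intervals lay above 0 (77.8%, against 30.8% of all families) and none below. Its median was 0.31, or 0.19 on total counts, where 3 lay above and 1 below. RLTR10A (1.57-fold, 1.39 to 1.76), RLTR10-int (1.53-fold, 1.45 to 1.62) and MMERVK10C-int (1.53-fold, 1.46 to 1.6) had the highest ratios of the list, and the other 6 ranged from a log2 ratio of -0.16 (RLTR10B2) to 0.32 (RLTR10E). MMERVK10C-int itself was at 1553 CPM in control testis and 2378 CPM in knockout testis.

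**Figure D2:**
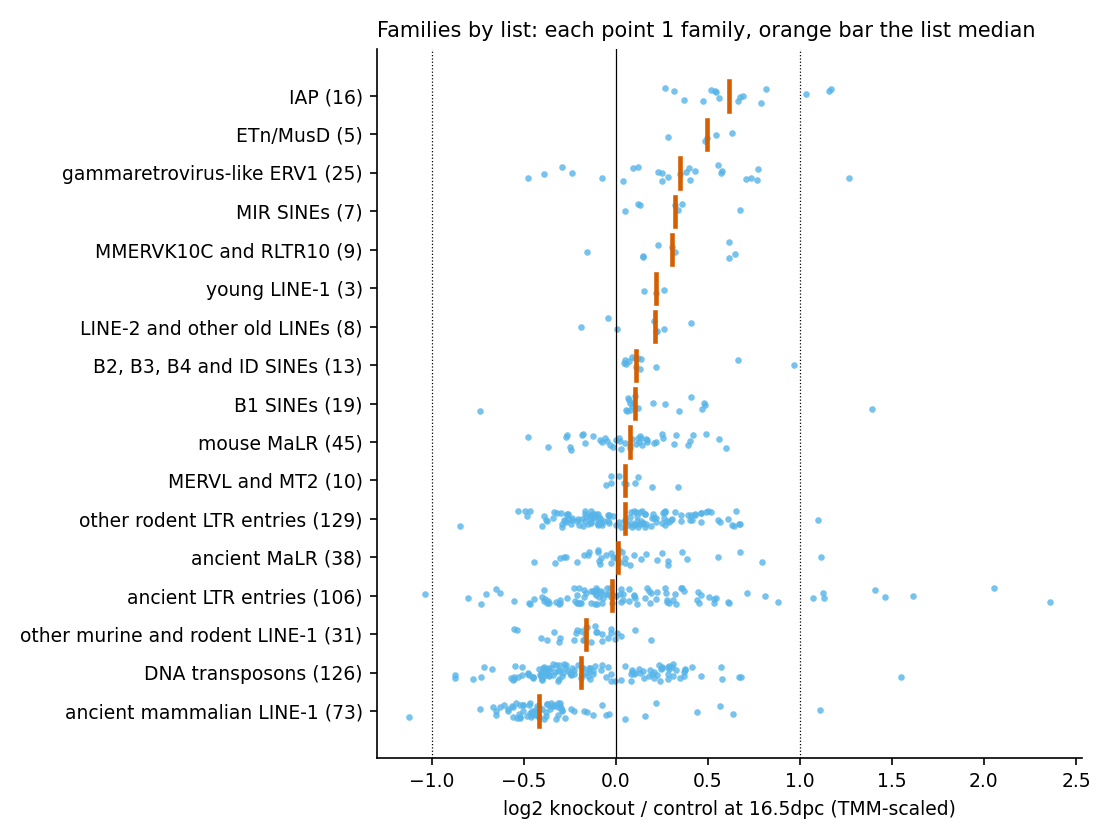
Log2 ratio of knockout to control at 16.5dpc (horizontal axis, TMM-scaled) for each compared family, 1 point a family, in rows by list with the number of families in brackets; the orange bar is the list median and dotted lines mark 2-fold. The IAP row lies wholly to the right of 0 with its median at 0.61, and the ancient mammalian LINE-1 row has its median at -0.41.

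Internal sequences and LTRs of the same element were set side by side for 11 elements. In 9 of them the internal sequence had the higher ratio and in 2 the LTR. The intervals of the 2 parts did not overlap for 4 elements, in 3 of which the internal sequence was the higher. The widest gap was that of MMERGLN-int over its LTR RLTR1B, 2.41-fold against 1.35-fold (1.23 to 1.47), a difference of 0.84 on the log2 scale. MMERVK10C-int exceeded RLTR10C (1.11-fold, 1.02 to 1.2) by 0.47, and MMVL30-int exceeded RLTR6_Mm (1.47-fold, 1.36 to 1.58) by 0.22. For IAPLTR4_I and IAPLTR4 the gap was 0.01. LTR entries also count solitary LTRs, which lack the internal sequence, and the 2 entries of a pair therefore do not sum over the same copies. Internal entries of the ERV1 list outside these pairs did not all exceed the LTR of like name. RLTR4_MM-int did, with a log2 ratio of 0.77 (RLTR4_Mm 0.57). Below the LTR were RLTR1B-int with 0.38 (RLTR1B 0.43), RLTR6-int with 0.40 (RLTR6_Mm 0.56) and RLTR14-int with -0.07 (RLTR14 0.12). These gaps were not tested.

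**Figure D3:**
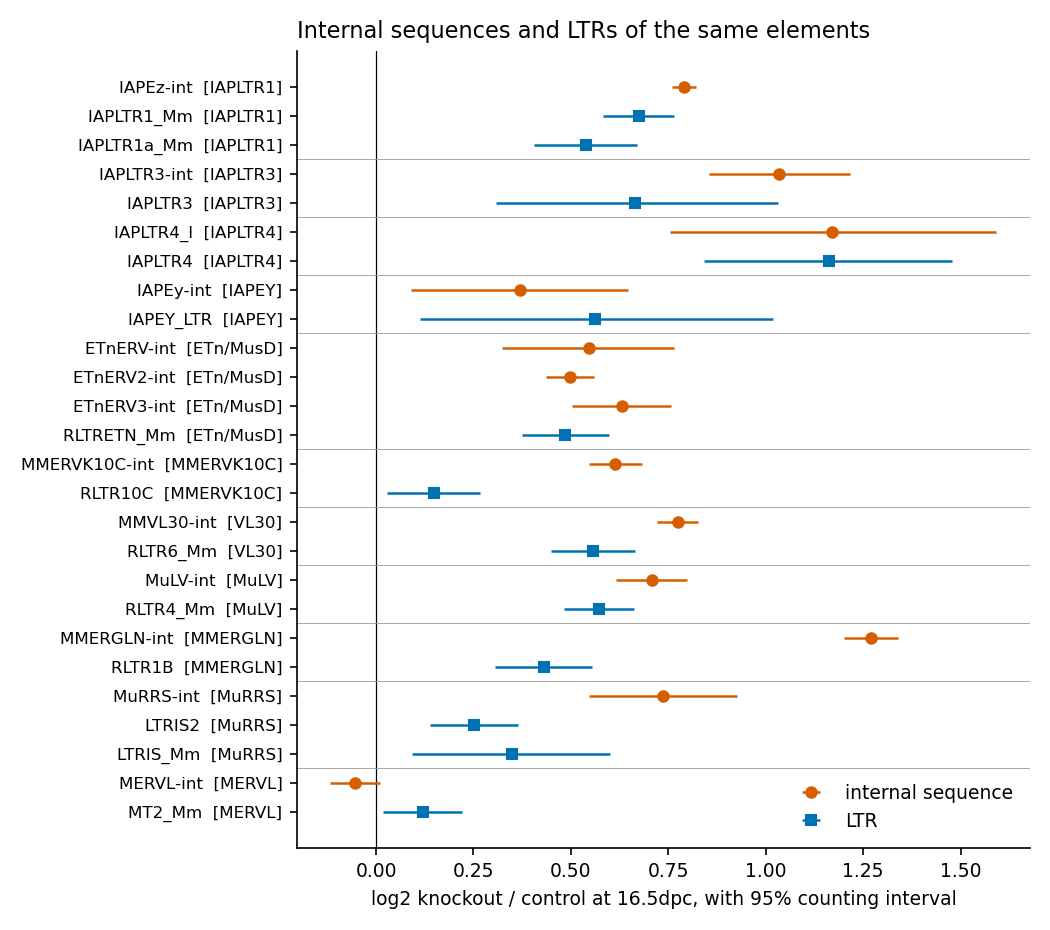
Log2 ratio of knockout to control at 16.5dpc with its 95% counting interval (horizontal axis) for internal sequences (circles) and LTRs (squares), grouped by element in square brackets. MMERGLN-int at 1.27 lies well to the right of its LTR RLTR1B at 0.43, and MERVL-int at -0.05 to the left of MT2_Mm at 0.12.

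MERVL is a class III ERV known for its expression in the early embryo, and MT2 entries are its LTRs and their older relatives. MERVL-int was at 2274 CPM in control testis and 2192 CPM in knockout testis, a log2 ratio of -0.05 (-0.12 to 0.01). MT2_Mm had 0.12 (0.02 to 0.22). The 10 families had a median of 0.05, which turned to -0.07 on total counts. The call for MERVL-int depended on the scaling, since on total counts its log2 ratio was -0.17 (-0.24 to -0.11).

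MaLR elements are non-autonomous relatives of MERVL, and in their mouse lineages LTR and internal entries had different medians, a gap that was not tested. Of 21 MT and ORR1 LTR families 18 had intervals above 0 (85.7%, against 30.8% of all families) and none below. Their median log2 ratio was 0.17 (0.05 on total counts, with 8 above and 5 below). Among 24 internal families the interval was above 0 in 4 (16.7%) and below it in 10 (41.7%, against 27.4% of all families). Their median was -0.07 (-0.19 on total counts, with 3 above and 15 below). ORR1A0 was at 601 and 910 CPM, 1.51-fold higher in the knockout library (1.4 to 1.63). MTA_Mm was at 4381 and 6453 CPM, 1.47-fold (1.43 to 1.52). ORR1B2-int, at 270 and 194 CPM, was 1.39-fold higher in the control (1.21 to 1.61). MTA_Mm was chosen after its value was seen. The ancient MaLR names had a median of 0.01 over 38 families (-0.11 on total counts), with MLT1E3 the highest at 205 and 444 CPM, 2.16-fold (1.92 to 2.45).

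The 129 other rodent LTR entries, most of them ERVK, centred near 0 and spread both ways. Intervals lay above 0 for 40 and below for 34, and the median was 0.05, which turned to -0.07 on total counts. RNERVK23-int had the highest ratio, at 903 CPM in control testis and 1935 CPM in knockout testis, 2.14-fold (2.02 to 2.27). RLTR19-int, at 3467 and 5417 CPM, was 1.56-fold higher (1.51 to 1.61), and RLTR45-int 1.41-fold (1.35 to 1.46), both chosen after their values were seen. RLTR20A1 was the lowest, at 71.7 and 39.7 CPM, 1.8-fold higher in the control (1.32 to 2.45). By name group the RLTR9 entries had a median of 0.27 over 8 families (0.15 on total counts) and the RLTR20 entries one of -0.21 over 8 (-0.33 on total counts).

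Young LINE-1 subfamilies, which hold the copies that still move in mice, lay a little above the control. L1Md_T was at 12330 CPM in control testis and 14361 CPM in knockout testis, 1.16-fold (1.14 to 1.19). L1Md_A was at 7280 and 8096 CPM, 1.11-fold (1.09 to 1.14), and L1Md_Gf at 504 and 605 CPM, 1.2-fold (1.1 to 1.31). All 3 ratios kept their sign on total counts, where the median of 0.22 became 0.10 and 2 of the 3 intervals lay above 0. Their summed share of the listed counts was 2.15% in control testis (2.13 to 2.17) and 2.27% in knockout testis (2.25 to 2.3). The shares differ by more than counting error and by 0.119 percentage points, against 0.764 points for IAP.

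Most older LINE-1 families, which no longer move, lay below the control. Of 73 families with names shared among mammals, 54 had intervals below 0, against 27.4% of all families, and 6 above. Their median log2 ratio was -0.41, or -0.53 on total counts. The 9 L1MA families and the 7 L1MB families all had intervals below 0, with medians of -0.50 and -0.37. L1MC had a median of -0.35 over 10 families, L1MD of -0.34 over 6 and L1ME of -0.47 over 17. The L1M1 to L1M7 names had -0.41 over 18, with 8 intervals below 0 and 3 above. Reads from copies inside longer transcripts are not separated for these families. The lowest was L1MEg2, at 26.2 and 11.8 CPM, 2.18-fold higher in the control (1.29 to 4.0), from 57 and 18 counts. Highest of the 6 with an interval above 0 was L1M2b, at 48.2 and 104 CPM, 2.16-fold higher in the knockout library (1.68 to 2.79). Among the 31 murine and rodent LINE-1 families other than A, T and Gf, 23 had intervals below 0 and 2 above, and the median was -0.16 (-0.28 on total counts). L1_Mur3 was the lowest of them, at 4838 and 3295 CPM, 1.47-fold higher in the control (1.42 to 1.52). L1Md_F2, at 17273 and 17332 CPM, had a fold of 1.0 (0.988 to 1.02), but a log2 ratio of -0.11 (-0.14 to -0.09) on total counts, where all 3 L1Md_F intervals lay below 0. The 16 Lx families had a median of -0.17 (-0.29 on total counts). The ancient LINE-1 list took 6.01% of the listed counts in control testis and 4.22% in knockout testis, and the other murine and rodent list 13.2% and 11.1%.

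SINEs are short elements transcribed by RNA polymerase III, and their copies also lie inside longer transcripts, whose reads the files do not separate. B2_Mm1a had the highest ratio in the B2, B3, B4 and ID list, at 7036 CPM in control testis and 13771 CPM in knockout testis, 1.96-fold (1.92 to 2.0). Its close relative B2_Mm1t was at 7939 and 12573 CPM, 1.58-fold (1.55 to 1.62), and B2_Mm2 at 26987 and 31375 CPM, 1.16-fold (1.15 to 1.18). The 3 B2 intervals did not overlap. LFSINE_Vert, an ancient SINE in no list that was chosen after its value was seen, was at 133 and 267 CPM, 2.0-fold (1.72 to 2.34). On total counts LFSINE_Vert fell below 2-fold. B1_Mus1 (28860 and 39944 CPM, 1.38-fold, 1.37 to 1.4) and B1_Mus2 (22366 and 31311 CPM, 1.4-fold, 1.38 to 1.42) had the highest ratios of the 10 families with the most counts. B1_Mm was at 11754 and 16372 CPM, a fold of 1.39 (1.37 to 1.42). B2_Mm1t and B1_Mm were chosen after their values were seen. Close to the control lay B3 (log2 ratio 0.06), B3A (0.11), B4A (0.10), ID_B1 (0.12), PB1D10 (0.10) and ID4_ (0.05). These log2 ratios all turned below 0 on total counts. RSINE1 had a log2 ratio of 0.13 (0.12 to 0.15), but 0.014 (-0.0031 to 0.030) on total counts, where the interval held 0. The B1 list had a median of 0.10 over 19 families and the B2, B3, B4 and ID list one of 0.11 over 13, which became -0.02 and -0.01 on total counts. In the B1 list AluG_3 was the lowest, at 104 and 62.2 CPM, 1.66-fold higher in the control (1.31 to 2.15).

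**Figure D4:**
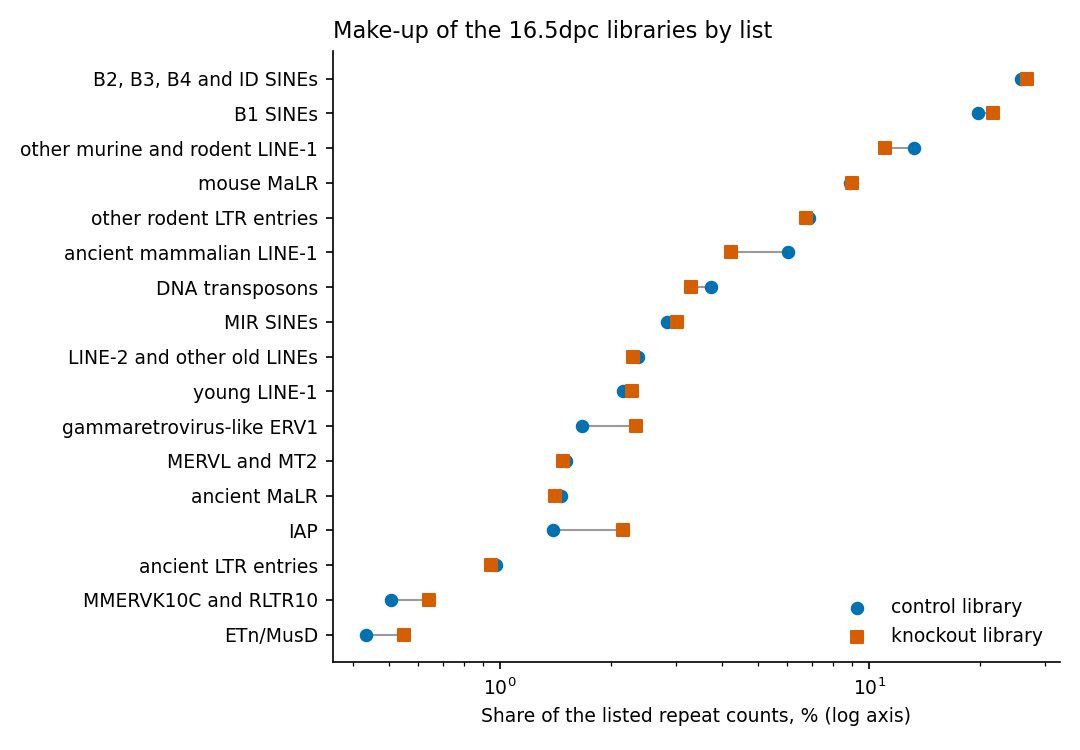
Share of the listed repeat counts taken by each list (horizontal log axis, %) in the control library (circles) and the knockout library (squares) at 16.5dpc. The 2 SINE lists at the top hold the largest shares in both libraries, IAP moves from 1.39% to 2.16%, and the ancient mammalian LINE-1 list from 6.01% to 4.22%.

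The oldest repeats lay on both sides of the control. The MIR list, ancient SINEs grouped by name, had intervals above 0 for 6 of 7 families (85.7%, against 30.8% of all families). Its median was 0.32 (0.20 on total counts). AmnSINE1, a member of the list without the MIR name, was highest at 97.8 and 156 CPM, 1.59-fold (1.32 to 1.93). The log2 ratio of MIRb, 0.12 (0.09 to 0.15), became -0.00023 on total counts. LINE-2 and other old LINEs had a median of 0.21 over 8 families (0.09 on total counts), from L2a at 1.14-fold higher in the control (1.11 to 1.17) to L3b at 1.33-fold higher in the knockout library (1.2 to 1.47). DNA transposons, which once moved by excision and reinsertion, had 42 of 126 intervals below 0 (33.3%) and 19 above (15.1%). Over all families the shares were 27.4% and 30.8%. The median of the DNA transposons was -0.19 (-0.31 on total counts). Tigger families had a median of -0.31 over 19 and Charlie families one of -0.20 over 31. Charlie7a, at 33.96 and 18.3 CPM, and Charlie21a, at 18.4 and 9.85 CPM, had log2 ratios of -0.87 (-1.57 to -0.24) and -0.87 (-1.86 to -0.01). Kanga1d had -0.77 (-1.6 to -0.04).

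FordPrefect, a hAT-type DNA transposon, departed from its class. It was at 644 CPM in control testis and 1884 CPM in knockout testis, 2.92-fold (2.74 to 3.12), from 1404 and 2876 counts. No other compared DNA transposon reached 2-fold in either direction. Among the 106 ancient LTR entries the median was -0.02 (-0.14 on total counts). Of these 106, 8 were at least 2-fold higher, against 18 of all 678 families (2.65%). LTR81B was at 22.04 and 114 CPM, 5.12-fold (3.74 to 7.28), from 48 and 174 counts. MER50 was at 9.64 and 40.6 CPM, 4.15-fold (2.53 to 7.28), from 21 and 62 counts, and its relative MER50B, chosen after its value was seen, at 58.7 and 128 CPM, 2.18-fold (1.74 to 2.75). LTR88a (3.06-fold, 1.87 to 5.25), LTR48B (2.75-fold, 2.23 to 3.43) and MamGypLTR2 (2.65-fold, 1.85 to 3.91) followed. Over both libraries LTR88a had 76 counts, MER50 83, MamGypLTR2 132 and LTR81B 222, and their intervals are wide. Across all lists, 6 of the 133 families with 50 to 200 counts were at least 2-fold higher. Alu, a name from the primate SINE, had 21 and 39 counts (2.62-fold, 1.52 to 4.74). LTR86A1, with 39 and 13 counts, was the other family past 2-fold on the low side (2.05-fold higher in control testis, 1.1 to 4.29). Less far apart were MER54A (1.75-fold, 1.37 to 2.25), MamRep1161 (1.75-fold, 1.35 to 2.27) and L1MEa (1.67-fold, 1.25 to 2.27), all higher in control testis. Of the 18 families at least 2-fold higher 12 had 200 or more counts, and of the 2 lower none did.

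A test was possible only with the later ages in the same model. The 6 libraries were fitted with edgeR's quasi-likelihood method, with terms for age, for the genotype effect at 16.5dpc and for 1 common genotype effect at 10dpp and 20dpp. Its 1 residual degree of freedom holds the difference between the genotype effects at 10dpp and 20dpp, moderated over families. The test therefore assumes that the 16.5dpc libraries vary as much as these. A true change between the later ages, or one from the wild-type label of the 20dpp control, is counted there as noise. For L1Md_T the log2 ratios at 10dpp and 20dpp were 0.13 and 2.10. Of 752 families tested 0 (0%) passed at an adjusted p of 0.05, with a smallest adjusted p of 0.348 in edgeR. At an unadjusted p under 0.05 there were 83, of which 54 were higher and 29 lower in the knockout library. DESeq2's Wald test on the same design, over 786 families, called 4, all higher: B2_Mm1a, MMERGLN-int and RNERVK23-int (adjusted p = 0.00647 each) and FordPrefect (adjusted p = 0.021). In the edgeR fit MMERGLN-int had a log2 change of 1.27 ± 0.24 (SE), RNERVK23-int 1.1 ± 0.21 and B2_Mm1a 0.97 ± 0.19, each with an adjusted p of 0.348. IAPEz-int had 0.79 ± 0.22 and L1Md_T 0.22 ± 0.59, with adjusted p-values of 0.38 and 0.882 in edgeR. The SE is moderated across families.

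Each age has its own control library, so the same families could be read at later ages from separate animals. The IAP list had medians of 0.61, 0.36 and 0.43 at 16.5dpc, 10dpp and 20dpp, and 15, 8 and 11 of its 16 intervals lay above 0, with 0, 1 and 4 below. Over all 678 families 18.3% of intervals lay above 0 at 10dpp and 43.4% at 20dpp, with 14.9% and 35.7% below. The control and knockout libraries held 8639952 and 11239673 listed counts at 20dpp, against 2035033 and 1548394 at 16.5dpc. Intervals were therefore mostly narrower at 20dpp, and counts of intervals are not on a like footing across ages. Within the list IAPEz-int had log2 ratios of 0.79, 1.51 and 1.79 and IAPLTR1_Mm 0.67, 1.67 and 2.07. IAPLTR3-int had 1.04, 0.04 and -1.31, and IAPLTR4 1.16, -0.04 and 0.58. IAPLTR4_I had the highest IAP ratio at 16.5dpc and IAPLTR1_Mm the highest at both later ages. Young LINE-1 had medians of 0.22, 0.13 and 1.66.

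The gammaretrovirus-like ERV1 list had medians of 0.35, 0.06 and -0.18. MMERGLN-int was at 1.27, 0.34 and 0.91, and MuRRS-int at 0.74, -0.09 and -1.21. ETn/MusD had medians of 0.50, 0.17 and -0.21. For ancient mammalian LINE-1 the medians were -0.41, 0.01 and 0.07, and 54, 11 and 15 of its 73 intervals lay below 0, with 6, 9 and 37 above. Mouse MaLR had 22 intervals above 0 and 10 below at 16.5dpc, 0 and 23 at 10dpp, and 17 and 22 at 20dpp. Over all compared families 30.8%, 18.3% and 43.4% of intervals lay above 0 at these ages, and 27.4%, 14.9% and 35.7% below. Of the 18 families at least 2-fold higher at 16.5dpc 1 was so at 10dpp (Alu) and 1 at 20dpp (MLT1E3), against 1.18% and 1.77% of all compared families. Of the 18, 6 and 12 had intervals above 0 at those ages, against 18.3% and 43.4% of all compared families. Below 0 were 1 and 3 of the 18, against 14.9% and 35.7%. Over all compared families 34 (5.01%) had the interval on 1 side of 0 at 16.5dpc and on the other at both later ages. B2_Mm1a had log2 ratios of 0.97, 0.26 and 0.38, and RNERVK23-int 1.1, 0.48 and 0.88.

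**Figure D5:**
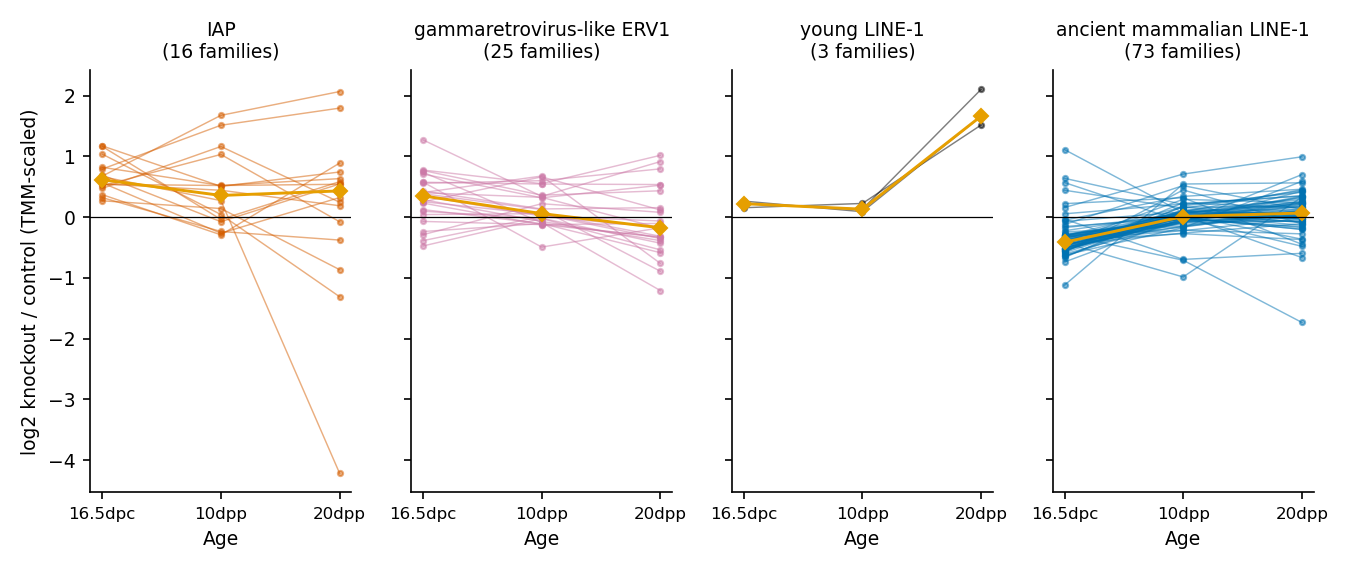
Log2 ratio of knockout to control (vertical axis, TMM-scaled) at 16.5dpc, 10dpp and 20dpp for each family of 4 lists (thin lines), with the list median as orange diamonds; each age is 1 pair of libraries. The young LINE-1 median is 0.22 at 16.5dpc and 1.66 at 20dpp, and the ancient mammalian LINE-1 median is -0.41 at 16.5dpc and near 0 later.

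The difference between the 16.5dpc effect and the common later effect was tested in the same fit. Of 752 families 0 (0%) passed in edgeR after adjustment (smallest adjusted p = 0.408), and 53 had an unadjusted p under 0.05. DESeq2 called 1, FordPrefect (adjusted p = 9.3e-06). The families whose 16.5dpc ratio most exceeded the mean of the later ones were FordPrefect, IAPLTR3, MER50, LTR81B and RLTR9A2. Those furthest below it were L1MEg2, Tigger16a, MER34B-int, IAPLTR1_Mm and MamRep1161. LTR81B, with log2 ratios of 2.36, -0.30 and 0.32, had a fitted difference of 2.29 ± 0.47 (SE) and an adjusted p of 0.556 in edgeR. For IAPLTR1_Mm the difference was -1.2 ± 0.26, with an adjusted p of 0.556. The 20dpp control also differs from the other controls in its labelled genotype.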

How the data were processed

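RNA from whole testes was extracted with TRIzol and sequenced from stranded TruSeq mRNA libraries, per the labels. What the authors deposited is 1 estimated count per repeat family and library, mostly not a whole number. Between 7.91% and 13.5% of values in a library were whole within 1e-06. Reads were aligned with Bowtie to mm9, per the submitters' processing notes. Not given in the sources used here are Bowtie's version, the repeat annotation, how reads matching several families were weighted, and whether strand was used. Near-identical subfamilies can therefore exchange reads, a value sums over all copies, and no coordinate or sequence can be assigned. The files hold no gene rows, so neither Dnmt3L nor cell type markers could be read. The labels name no batch.

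TMM factors from all 6 libraries (edgeR 4.0.16, R 4.3.3) were 1.07 for the control and 0.986 for the knockout library at 16.5dpc. Ratios were taken after adding 0.5 counts. The exact Clopper-Pearson interval (95%) of the rounded counts, conditional on their sum, was carried to the scaled ratio (scipy 1.17.1). Reads shared between families are not independent whole counts, so these intervals can be too narrow or too wide, which was not tested. The quasi-likelihood fit used rounded counts, the default filter and Benjamini-Hochberg adjustment, and DESeq2 1.42.0 was an alternative. Both the fit and the interval were run on simulated whole counts. For the fit these had no effect of age, no later genotype effect and the same dispersion for every family. The simulations lack the shared reads and fractional counts of the real libraries, so they cannot show how either method performs here. Families were put into 17 lists by patterns in their names, and 22 belong to none. Named families are all members of the 5 lists of young LINE-1, IAP, ETn/MusD, MMERVK10C and ERV1, the 10 highest and 10 lowest ratios whose interval leaves out 0, the 10 with the most counts, the extremes of each list, the members of the pairs, and the 5 largest differences from the later ages either way. Members and lists were chosen with earlier results of these data known, and some patterns were corrected once the family names were seen.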

Additional observations from a re-analysis of the deposited data

Results flagged for a closer look

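In 6 named families the counting interval lay on 1 side of 0 at 16.5dpc and on the other at both later ages, as it did in 34 of all 678 compared families (5.01%). FordPrefect, MER34B-int and Tigger16a are named because their difference from the later ages was among the largest, so this pattern was selected for in them. FordPrefect had a log2 ratio of 1.55 at 16.5dpc, -0.70 at 10dpp and -1.84 at 20dpp. Its fitted difference from the later ages was 2.81 ± 0.45 (SE), with an adjusted p of 0.408 in edgeR. RLTR1, an ERV1 LTR, had 0.58, -0.49 and -0.18, RLTR10D had 0.31, -0.39 and -0.47, and MT2A had 0.10, -0.09 and -0.15. The reverse order was seen in MER34B-int, with -0.47, 1.01 and 0.53, and in Tigger16a, with -0.39, 1.21 and 0.57. Their adjusted p-values for the difference were 0.556 in edgeR, except 0.719 for MT2A, whose 16.5dpc ratio changed sign on total counts.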

How the results depend on the processing

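Scaling on total counts instead of TMM shifted each log2 ratio by -0.12, against 0.02 for DESeq2 size factors and 0.01 for TMM on the 2 fetal libraries alone. On total counts 113 intervals lay above 0. MLT1E3, L1M2b, RNERVK23-int, IAPLTR3-int, LTR81C and LFSINE_Vert were no longer 2-fold higher there. List medians became 0.10 for young LINE-1, -0.28 for other murine and rodent LINE-1, 0.092 for LINE-2 and other old LINEs, -0.017 for B1 SINEs, -0.0096 for B2, B3, B4 and ID SINEs, 0.20 for MIR, 0.38 for ETn/MusD, -0.068 for MERVL and MT2, and -0.041 for mouse MaLR. Single ratios that changed sign there were B3 (-0.063), B3A (-0.0096), B4A (-0.015), ID4_ (-0.068), ID_B1 (-0.0011), MIRb (-0.00023), MT2A (-0.015), MT2_Mm (-0.00037) and PB1D10 (-0.017), and, among families whose interval held 0, L1Md_F2 (-0.11), LTRIS_Mus (-0.079) and RLTR23 (-0.025). With 5 counts added, or a minimum of 200 counts, 0 families were at least 2-fold lower. Without a minimum 44 were at least 2-fold higher and 13 lower, which adds families of few counts. DESeq2's Wald test called 4 families for the 16.5dpc effect and 1 for its difference from the later ages, against 0 with edgeR. The cause was not tested. Of the recomputed ratios of single named families 44 left the counting interval without changing sign. No other alternative moved a list median beyond its members' counting error. No paired analysis was possible because each group has 1 library. With 1 library a side no library could be left out of a ratio, and leaving out a later age leaves the fit without residual degrees of freedom.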
